A study of Mus musculus with 6 samples.

Results

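*Gpd1*, *Gpd2* and *Gyk* are 3 genes of glycerol 3-phosphate metabolism on a real-time PCR array of 84 fatty acid metabolism genes. They were chosen by symbol, 1 well each, from the 84 gene wells of the array. No measured value entered this rule, but earlier results of these data were known when it was set. Glycerol 3-phosphate is the backbone on which fatty acids are esterified to triacylglycerol. *Gpd1* encodes the cytosolic glycerol-3-phosphate dehydrogenase, which makes glycerol 3-phosphate from the glycolytic intermediate dihydroxyacetone phosphate with NADH. *Gpd2* encodes the dehydrogenase of the inner mitochondrial membrane, which oxidizes glycerol 3-phosphate back to dihydroxyacetone phosphate and passes the electrons to the respiratory chain through FAD. Together these enzymes form the glycerol phosphate shuttle. *Gyk* encodes glycerol kinase, which phosphorylates free glycerol with ATP, and it is known for its low activity in white adipose tissue, where the glycerol set free by lipolysis is mostly released.

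RNA came from 3T3-L1 adipocytes, cells of a murine preadipocyte line. All samples were differentiated with insulin, dexamethasone and isobutylmethylxanthine and used at day 14. In the next 24 hours 3 samples received 500 ng/ml recombinant murine IL-15 (rmIL-15) and 3 received none (untreated), to ask whether the cytokine alters genes of fatty acid metabolism. Each sample had its own plate, loaded with cDNA from 400 ng of RNA. The titles, the descriptions and the group row of the tables place the same samples in each group, whereas the activation agent label swaps them, and all directions below follow the titles. No label says that the 3 samples of a group were separate cultures. The p-values therefore reflect only how these samples differ among themselves, which could be technical.

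Values are threshold cycles (Ct), the PCR cycle at which a product passes a fixed signal. With perfect doubling, 1 cycle less means 2 times as much RNA. Between 71 and 74 of the 84 gene wells per plate were under Ct 35. The 3 genes had Ct values of at most 27.78 in all 6 samples, so neither this limit nor any filter touched them. The adipocyte markers *Fabp4*, *Lpl*, *Lipe* and *Acsl1* had Ct values of at most 23.24, with *Fabp4* between 16.43 and 17.11, and *Fabp1*, of liver and intestine, was under Ct 35 on none. The plates were not level. The median Ct of the 74 tested genes was 25.63, 25.09 and 25.42 on the rmIL-15 plates, against 25.15, 25.19 and 25.80 on the untreated plates. rmIL-15 replicate 1 and untreated replicate 3 were thus the latest plates, 1 in each group, and 39 of the 74 tested genes (52.7%) had their 2 highest Ct values on this pair of plates.

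*Gpd1* was measured at a raw Ct of 21.23, 20.80 and 20.91 in rmIL-15 treated adipocytes, against 20.48, 20.57 and 21.76 in untreated adipocytes. The untreated samples spanned the treated ones, with the earliest and the latest Ct of the 6 both untreated. *Gpd2* was at 25.75, 25.65 and 25.81 with rmIL-15, against 25.73, 25.45 and 25.57 without. These 6 values lay within 0.358 cycles of each other, the 5th smallest range among the 74 tested genes, for which the median range was 0.921 cycles. *Gyk* was at 27.76, 26.65 and 26.98 with rmIL-15, against 26.57, 26.75 and 27.78 without. Each group held 1 late sample, rmIL-15 replicate 1 and untreated replicate 3, and the ranges of the groups were almost the same. *Gk2*, a second glycerol kinase gene with a well on the plate, was between Ct 36.62 and 38.34 in all samples and was not tested. It is named here after its values were seen. The order of Ct, *Gpd1* first, *Gpd2* next and *Gyk* last, was the same on all 6 plates and the ranges of the 3 genes did not overlap. Primer efficiencies were not used here. The order is therefore one of cycles and not of transcript numbers.

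**Figure D1:**
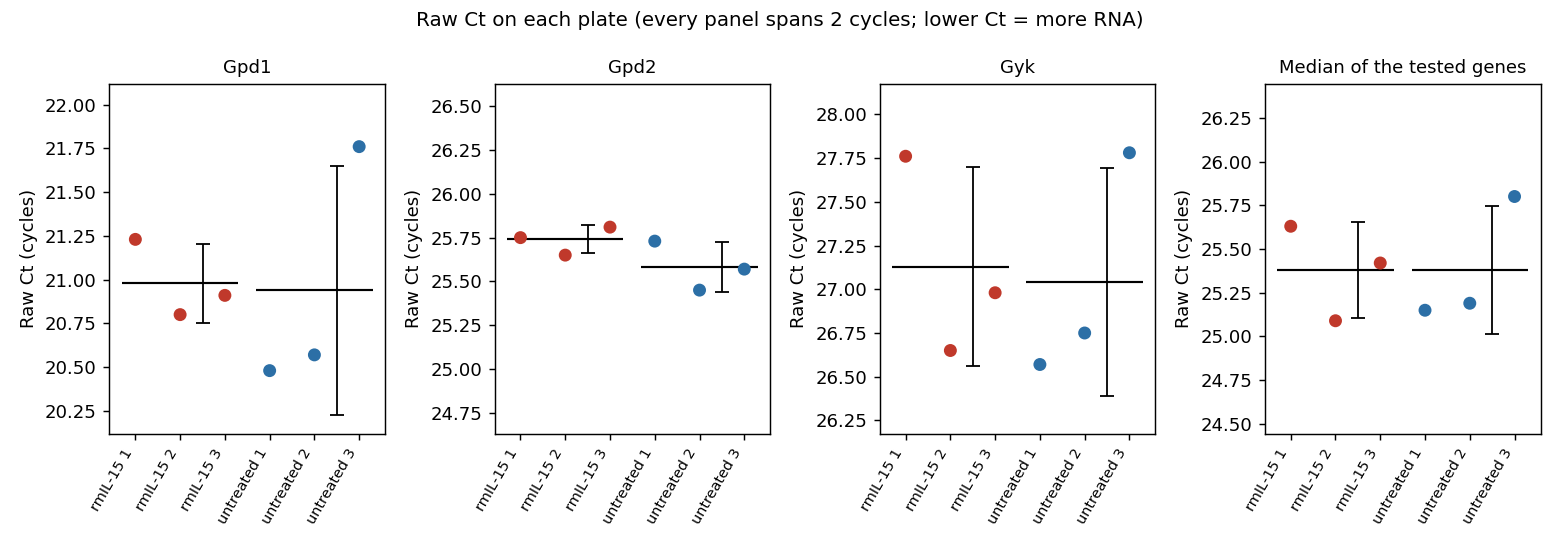
Raw Ct in cycles of *Gpd1*, *Gpd2*, *Gyk* and the median of the tested genes, by sample (red, rmIL-15; blue, untreated; line and bar, mean and SD of 3 samples). *Gpd1*, *Gyk* and the plate median were high in untreated replicate 3 and rmIL-15 replicate 1, while *Gpd2* stayed between 25.45 and 25.81.

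The spread of the raw values therefore differed between the genes. *Gpd1* and *Gyk* both had their 2 latest Ct values on rmIL-15 replicate 1 and untreated replicate 3, and ranged over 1.28 and 1.21 cycles. *Gpd2* did not follow the level of the plate. When each plate was centred on its median, the range of *Gpd2* widened to 0.815 cycles, while those of *Gpd1* and *Gyk* narrowed to 0.626 and 0.703 cycles. On this centred scale, as log2 levels relative to the plate median, *Gpd2* was at -0.12, -0.56 and -0.39 with rmIL-15, against -0.58, -0.26 and 0.23 without. Untreated replicate 3 was the highest of all *Gpd2* values, and the same sample was the lowest for *Gpd1*, at 4.05, against 4.29 to 4.67 in the other 5 samples. The part of RNA input or of reverse transcription in these differences between plates was not tested. The reverse transcription control had plate means between 21.95 and 22.85 cycles and the positive PCR control between 19.15 and 19.32.

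None of the 3 genes passed the test of rmIL-15 treatment, and their fitted levels in treated cells were between 0.882 and 0.951 of those in untreated cells. For this comparison each gene was expressed relative to the well annotated *Gapdh*, the gene named in the methods of the study, with higher values for more RNA, and limma was run over the 74 tested genes. The identity of that well is in doubt, as described with the reference wells. On this log2 scale *Gpd1* was at 4.40, 4.36 and 4.61 with rmIL-15, against 4.77, 4.61 and 4.21 without. Its log2 fold change was -0.07 (standard error 0.18, adjusted p = 0.92), or a fold of 0.951 with a 95% interval of 0.701 to 1.29. *Gpd2* was at -0.13, -0.49 and -0.29 with rmIL-15, against -0.49, -0.27 and 0.40 without. The treated samples lay inside the range of the untreated ones, and the log2 fold change was -0.18 (standard error 0.26, adjusted p = 0.82), a fold of 0.882 with a 95% interval of 0.569 to 1.37. *Gyk* was at -2.13, -1.49 and -1.46 with rmIL-15, against -1.33, -1.57 and -1.81 without. rmIL-15 replicate 1 was the lowest of the 6, and the log2 fold change was -0.12 (standard error 0.24, adjusted p = 0.87), a fold of 0.919 with a 95% interval of 0.613 to 1.38. In a culture of differentiated cells, fewer adipocytes and less RNA per adipocyte cannot be told apart by such values.

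At an adjusted p under 0.05 limma called 0 of the 3 genes and 0 of all 74 (0%). At an unadjusted p under 0.05 again 0 of the 3 passed, against 7 of the 74 (9.46%), and the methods' t-test also gave 7 of the 74 at this threshold and 0 after adjustment. The groups overlapped for all 3 genes, whereas they did not for 13 of the 74 (17.6%). By unadjusted p the genes ranked 56th (*Gpd1*), 44th (*Gpd2*) and 53rd (*Gyk*) of 74. The exact permutation test over the 6 samples, two-sided, gave p = 0.8 for *Gpd1*, 0.7 for *Gpd2* and 0.7 for *Gyk*, where 0.1 is the smallest p that 3 samples against 3 allow. On raw Ct, with no reference, the differences of rmIL-15 minus untreated were 0.043 cycles for *Gpd1* (exact permutation test, p = 1), 0.152 cycles for *Gpd2* (p = 0.2) and 0.093 cycles for *Gyk* (p = 0.8).

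**Figure D2:**
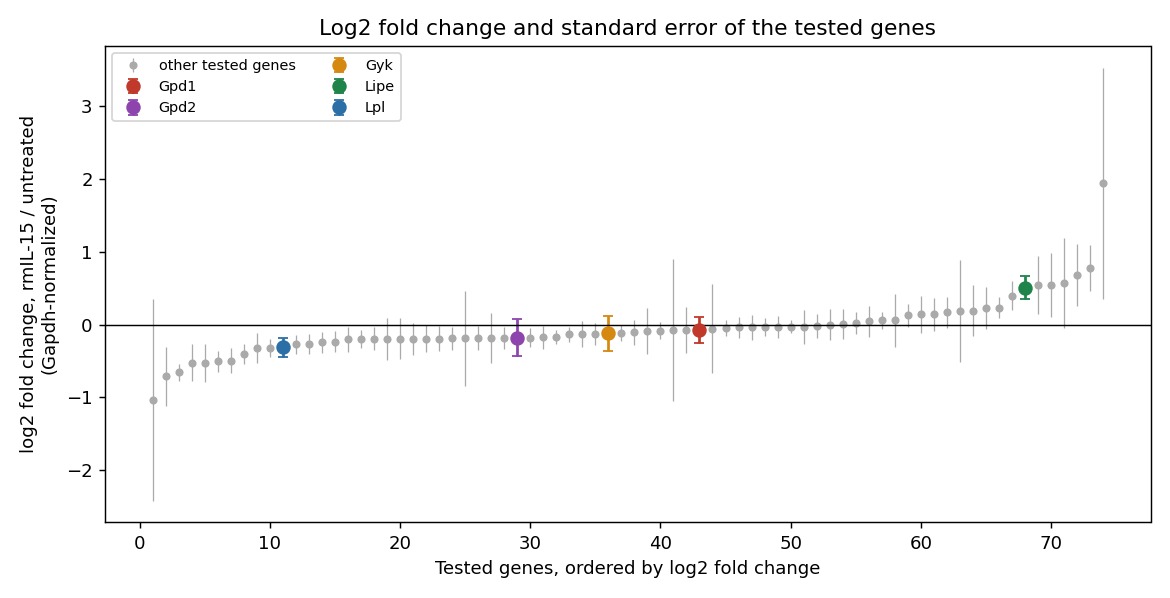
Log2 fold change of rmIL-15 over untreated (*Gapdh*-normalized, bars are standard errors from limma) of the 74 tested genes, in order of size. *Gpd2*, *Gyk* and *Gpd1* stand at places 29, 36 and 43 from the lowest, near the median of -0.11, and *Lpl* and *Lipe* at places 11 and 68.

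The intervals, like the p-values, reflect only the spread among these samples, which could be technical. They limit the size of a change only in that sense. With the well annotated *Gapdh* and all samples, a log2 change of 1 in either direction, a 2-fold change, lay outside the 95% interval of each gene. This bound did not hold in every fit. The interval reached that size in 1 of 23 fits for *Gpd1*, with the well annotated *Hsp90ab1* as reference, in 2 for *Gyk*, with that well and on raw Ct, and in 5 for *Gpd2*, with that well and in 4 of the fits that left out 1 sample. All 3 genes were lower in sign, as were 53 of the 74 tested genes, and their median log2 fold change was -0.12, against -0.11 over all 74. The lower sign rests on the reference for *Gpd1*, which was at 0.031 with the well annotated *Gusb*. It also rests on single samples. *Gpd1* was at 0.047 without untreated replicate 1, *Gpd2* at 0.077 without untreated replicate 3 and *Gyk* at 0.096 without rmIL-15 replicate 1.

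**Figure D3:**
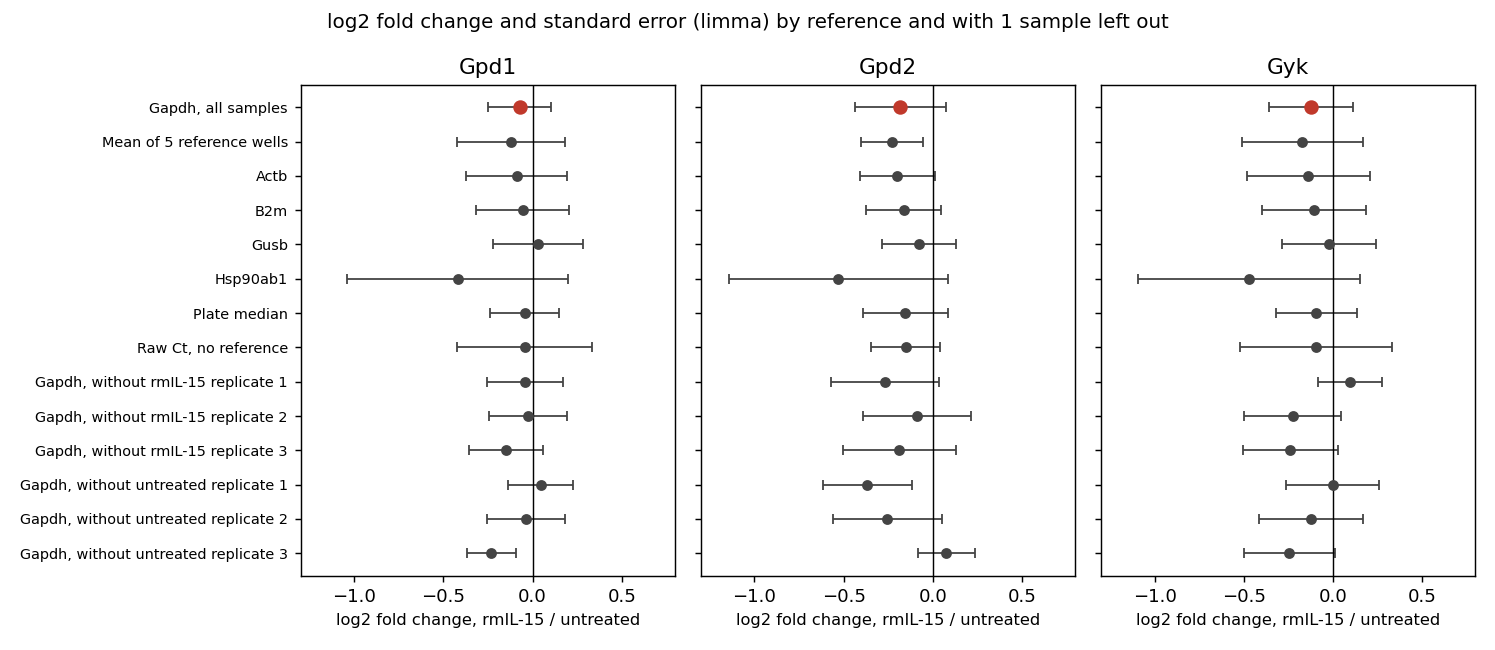
Log2 fold change of rmIL-15 over untreated with its standard error (limma) for each gene, by reference and with 1 sample left out. Red points are the values with *Gapdh* and all 6 samples. With *Hsp90ab1* the values were between -0.53 and -0.42 with standard errors of at least 0.614, and no fit reached an adjusted p below 0.617.

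The reference wells carry the scale of these values. The well annotated *Gapdh* was at 25.63, 25.16 and 25.52 cycles with rmIL-15, against 25.25, 25.18 and 25.97 without. Its Ct was later than that of the other 4 reference wells on every plate, which lay between 18.31 and 20.54 cycles. The normalized values of the authors subtract the well annotated *B2m*, whereas the methods name GAPDH. Whether the deposited names of the reference wells are right is in doubt and was not tested, so a value given relative to *Gapdh* is relative to the well of that name, whichever gene it reads. Exact permutation tests on raw Ct gave p between 0.4 and 0.9 for the 5 wells. The well annotated *Hsp90ab1* was at 18.52, 18.74 and 18.55 cycles with rmIL-15, against 19.55, 18.88 and 18.51 without. A single plate, untreated replicate 1, was late in this well, and subtracting it lowered the median of all 74 genes by 0.35 on the log2 scale together with the 3 genes.

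Differences between members need no reference well, since both genes of a pair were read on the same plate. *Gpd1* over *Gpd2*, the Ct of *Gpd2* minus that of *Gpd1*, was 4.52, 4.85 and 4.90 cycles with rmIL-15, against 5.26, 4.87 and 3.82 without. The untreated samples held both the highest and the lowest value, and the difference of rmIL-15 minus untreated was 0.109 on the log2 scale. *Gpd1* over *Gyk* was 6.53, 5.85 and 6.07 cycles with rmIL-15, against 6.10, 6.18 and 6.03 without, a difference of 0.050. This was the steadiest of the pairs in untreated cells, with an SD of 0.076 cycles, against 0.345 with rmIL-15. *Gpd2* over *Gyk* was 2.01, 1.00 and 1.18 cycles with rmIL-15, against 0.84, 1.30 and 2.21 without, a difference of -0.059. Each of the 3 pairs had p = 0.9 by the exact permutation test, two-sided, and 0.9 after Benjamini-Hochberg adjustment over the 3 pairs. The balance of the cytosolic enzyme, the mitochondrial enzyme and the kinase at the level of RNA therefore showed no difference beyond the spread between samples, and single samples turned the sign of each pair. Without untreated replicate 3, *Gpd1* over *Gpd2* was at -0.31 and *Gpd2* over *Gyk* at 0.32. *Gpd2* over *Gyk* was also positive without rmIL-15 replicate 2 (0.14) or 3 (0.050), and *Gpd1* over *Gyk* was at -0.14 without rmIL-15 replicate 1.

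**Figure D4:**
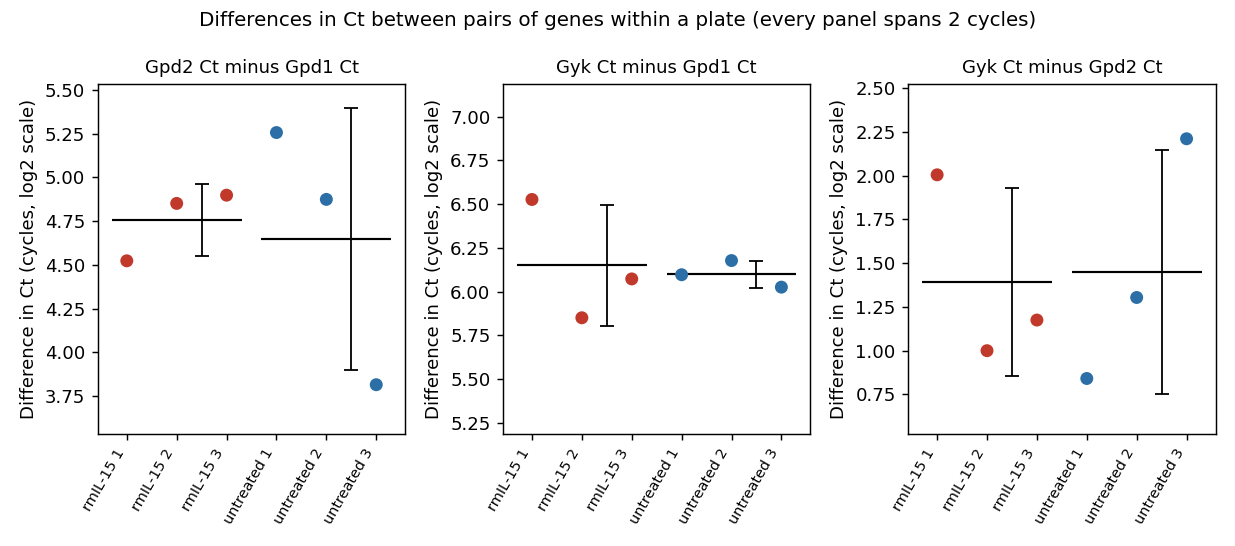
Differences in Ct between pairs of the 3 genes on each plate, in cycles (red, rmIL-15; blue, untreated; line and bar, mean and SD of 3 samples). The groups overlap in every pair, and *Gpd2* over *Gyk* (the Ct of *Gyk* minus that of *Gpd2*) is highest in untreated replicate 3 and rmIL-15 replicate 1, at 2.21 and 2.01 cycles.

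Over the 6 samples, on values centred on the plate median, *Gpd1* and *Gpd2* ran in opposite directions (r = -0.68), as did *Gpd2* and *Gyk* (r = -0.80), while *Gpd1* and *Gyk* ran together (r = 0.63). All such values share the centring and the same 6 plates, of which untreated replicate 3 and rmIL-15 replicate 1 carry much of the spread, and they are a description only. For these pairs r was not computed without that pair of plates. On the other 4 plates (rmIL-15 2 and 3, untreated 1 and 2) *Gpd1* was at 4.29, 4.51, 4.67 and 4.62. There *Gpd2* was at -0.56, -0.39, -0.58 and -0.26, which shows no opposite run of *Gpd1* and *Gpd2*. The genes most like *Gpd1* among the other 73 were *Acad10* (r = 0.91), *Acadvl* (r = 0.88) and *Acads* (r = 0.87). Without the pair of late plates these were at 0.80, 0.86 and 0.56 over 4 samples. All are of the acyl-CoA dehydrogenase family, which has further tested genes on the plate, such as *Acadl*, named next for *Gpd2*. Most like *Gpd2* were *Prkaa2*, a catalytic subunit of AMP-activated kinase (r = 0.96), *Ehhadh*, the peroxisomal bifunctional enzyme (r = 0.94), and *Acadl*, the long-chain acyl-CoA dehydrogenase (r = 0.94), at 0.70, 0.96 and 0.48 without those plates. Most like *Gyk* were *Acsm3*, a medium-chain acyl-CoA synthetase (r = 0.97), the fatty acid binding protein gene *Fabp5* (r = 0.95) and *Gcdh*, glutaryl-CoA dehydrogenase (r = 0.92), at -0.16, 0.97 and 0.98 without those plates.

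The other triacylglycerol genes of the plate encode lipases, which release fatty acids. *Lipe* encodes hormone-sensitive lipase, which acts on stored fat. It was at 3.61, 3.21 and 3.31 relative to *Gapdh* on the log2 scale with rmIL-15, against 3.06, 2.83 and 2.73 without. The groups did not overlap. By limma the log2 fold change was 0.51, with a standard error of 0.16 and an adjusted p of 0.47. *Lpl*, lipoprotein lipase, which acts on circulating triacylglycerol, was at 7.32, 7.39 and 7.63 with rmIL-15, against 7.80, 7.68 and 7.79 without. Its groups did not overlap either, and limma gave -0.31 with a standard error of 0.13 and an adjusted p of 0.48. Groups did not overlap in 17.6% of all tested genes on this scale, and on raw Ct those of both lipases overlapped (exact permutation test, two-sided, p = 0.2 for *Lipe* and 0.4 for *Lpl*). The sign of *Lipe* was positive and that of *Lpl* negative in all 23 fits, in 13 and 7 of which an unadjusted p under 0.05 was reached. These fits reuse the same samples, and those that changed only the Ct limit, the filter or the test could not move either value. Such counts are therefore not independent support. Whether *Gpd1*, *Gpd2* or *Gyk* differed from the lipases in their response was not tested. Of the long-chain acyl-CoA synthetases, which activate fatty acids for esterification, 4 of 5 were tested, 1 of them was lower at an unadjusted p under 0.05, against 6 of all 74 genes (8.11%), and their median log2 fold change was 0.30 below that of all 74 genes. Of the fatty acid transport proteins 3 of 6 were tested, none passed this threshold, and their median was 0.51 above that of all genes. At an adjusted p under 0.05 neither list had a call.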

How the data were processed

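Per the file headers, the authors deposited 2 tables of wells by samples from a SYBR green PCR array. One holds raw Ct, in cycles, with a threshold that the methods describe as identical for all plates. The other holds Ct values normalized by the authors, which are log2 levels with the opposite sign. They were recomputed here as the Ct, capped at 35, less the Ct in the well annotated *B2m*, with a largest discrepancy of 3.55e-15 cycles, whereas the table speaks of averaged housekeeping genes and the methods of GAPDH. This table served as an alternative. The authors' own comparison, a fold per gene, and 6 more per-sample columns were left out. The RefSeq identifiers of the 3 wells were found in the GRCm38.p6 annotation, *Gyk* under its updated symbol *Gk*. The files give no genome build, and no coordinates are given.

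Undetermined wells and Ct above 35 were taken as 35, and each gene was set against the well annotated *Gapdh*. A gene was tested if 1 group or both had every sample under Ct 35 (74 of 84). The fit used limma 3.58.1 (lmFit and eBayes, R 4.3.3) with Benjamini-Hochberg adjustment over all 74, after the script had been tested on simulated data. Raw Ct and pairs of genes were compared by exact permutation over samples. Alternatives were other references, Ct limits, filters and tests, a replicate block, and fits that leave out samples. Genes named beside the 3 are *Lipe*, *Lpl*, the reference wells, markers of cell types and, for each of the 3, the 3 tested genes with the highest Pearson correlation to it over samples. The genes and lists were chosen with earlier results of these data known. A well was read 1 time per sample, which leaves its error mixed with the spread between samples. Plots were made in Python 3.11.15 with matplotlib 3.10.9.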

Additional observations from a re-analysis of the deposited data

How the results depend on the processing

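No alternative brought *Gpd1*, *Gpd2* or *Gyk* to an adjusted p under 0.05, and over 22 alternative fits each the log2 fold changes lay between -0.42 and 0.047 for *Gpd1*, -0.53 and 0.077 for *Gpd2* and -0.47 and 0.096 for *Gyk*. The alternatives were not all distinct. Those that changed only the Ct limit, the filter on genes or the test kept the log2 fold changes, and *B2m* alone repeated the authors' normalized values. The sign of *Gpd1* turned with *Gusb* (0.031). When 1 sample was left out, *Gpd1* ranged from -0.23 to 0.047, *Gpd2* from -0.37 to 0.077 and *Gyk* from -0.24 to 0.096, and the differences within a plate from -0.31 to 0.41 for *Gpd1* over *Gpd2*, -0.14 to 0.20 for *Gpd1* over *Gyk* and -0.36 to 0.32 for *Gpd2* over *Gyk*. Without rmIL-15 replicate 1 and untreated replicate 3 together, an alternative chosen after seeing the data, these differences were -0.19, -0.18 and 0.015, of the opposite sign to those with all samples; the cause was not tested. Same-numbered samples did not share their deviations from the group means (r = -0.267, 0.092 and -0.275 over 74 genes). With the replicate block the log2 fold changes (-0.07, -0.18 and -0.12) could not differ, since each replicate number occurs in both groups. Their standard errors were 0.21, 0.25 and 0.28 (limma). The 3 pairs had exact p-values of 0.75 to 1 with this block, where 0.25 is the smallest possible.

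The 7 tested genes past an unadjusted p under 0.05 became 3 with the authors' normalized values, *B2m* or raw Ct, 2 with *Hsp90ab1*, and 4 with the replicate block or without rmIL-15 replicate 1. Precision is limited by 3 samples per group and single wells.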
